A study of Mus musculus with 14 samples.

Results

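The Ms4a family members Ms4a3, Ms4a4c, Ms4a6b, Ms4a6c, Ms4a6d and Ms4a7 were examined in GFP+CD11b+ myeloid cells from murine brain metastases (BrM), spleens and bone marrow. They were taken by gene symbol, with every probe of these symbols that the array carries, and were chosen with earlier results of these data known. The 6 genes have 11 probes, out of 45281 probes and 19057 named genes, and another 11 Ms4a genes have probes on the same array. The question was how the members of monocytes and macrophages differed between tissues and tumor models, set against Ms4a3, the member of granulocyte precursors.

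Genome-wide gene expression was measured on 14 Illumina arrays, each of cells sorted from C57Bl/6J mice of 14 weeks whose bone marrow was chimeric for green fluorescent protein (GFP). Per the methods, the chimeras were lethally irradiated and transplanted with hematopoietic stem cells of mice expressing GFP under the Ubiquitin C promoter. The sort was thus meant to keep graft-derived cells and to leave out GFP-negative cells of the host such as resident microglia. PyMT and EO771 are murine breast cancer cell lines, and tumors grew for about 2 weeks after intracranial injection. The arrays comprised PyMT BrM (n = 4), EO771 BrM (n = 2), spleens of PyMT BrM-bearing mice (n = 3), bone marrow of a PyMT BrM-bearing mouse (n = 1), naïve spleens (n = 2) and naïve bone marrow (n = 2), naïve mice being tumor-free. EO771-bearing mice gave no viable spleen or bone marrow cells, and naïve tissue took their place. In the EO771 comparison the tissue and the mice it came from therefore cannot be told apart, and in the comparison of both tumors the tumor line and the set of mice cannot be told apart. The code of EO771 BrM 2 holds 2 numbers, and whether it pooled animals is not stated. Both naïve bone marrow codes share a mouse number, so these arrays may come from the same mouse.

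Ms4a proteins cross the membrane 4 times, and their genes lie in a tight cluster on mouse chromosome 19. The best-known member, Ms4a1, encodes CD20 of B cells, and Ms4a2 encodes the β chain of the high-affinity IgE receptor of mast cells and basophils. Others are found in monocytes and macrophages, where human variants of the cluster have been linked to soluble TREM2 and to Alzheimer disease. In mice Ms4a3 marks granulocyte-monocyte progenitors, and its human counterpart HTm4 acts in the cell cycle. The 22 protein-coding genes of the cluster in assembly GRCm38.p6 included 21 Ms4a genes, of which 17 had a probe. In gene order the stretch with the members ran Ms4a7, Ms4a4a, Ms4a4c, Ms4a4b, Ms4a6c, Gm8369, Ms4a6b, Ms4a4d, Ms4a6d, Ms4a2 and Ms4a3.

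Promoter windows of 300 bases (250 before the start site and 50 after it) from RefSeq were at hand for 5 of the 6 members, Ms4a6d being the other one. They are shown for the genes with the clearest differences, because Ms4a6b and Ms4a6c moved together while Ms4a3 moved the other way. All are printed 5′ to 3′ on the gene's own strand in GRCm38.p6. Capitals mark matches, on either strand, to letters of known motifs. These were GAGGAA for ETS factors such as PU.1 and TTGCNNAA for C/EBP factors, both of myeloid cells. For interferon signaling they were GAAANNGAA for the interferon element and TTCNNNGAA for the gamma-activated site. The AP-1 site was searched as TGANTCA. The TATA box was searched as TATAAA.
Ms4a3, chr19:11640802-11641101, minus strand: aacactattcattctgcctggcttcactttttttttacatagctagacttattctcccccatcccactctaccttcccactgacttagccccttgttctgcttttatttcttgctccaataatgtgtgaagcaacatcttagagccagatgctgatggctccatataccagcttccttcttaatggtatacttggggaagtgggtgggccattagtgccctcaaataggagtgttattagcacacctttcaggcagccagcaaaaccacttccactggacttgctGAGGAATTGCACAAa
Ms4a6b, chr19:11518309-11518608, plus strand: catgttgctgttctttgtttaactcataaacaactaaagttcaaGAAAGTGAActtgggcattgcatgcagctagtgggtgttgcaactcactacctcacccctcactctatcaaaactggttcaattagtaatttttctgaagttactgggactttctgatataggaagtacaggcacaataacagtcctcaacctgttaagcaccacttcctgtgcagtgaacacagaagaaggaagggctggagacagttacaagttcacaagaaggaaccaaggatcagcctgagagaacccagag
Ms4a6c, chr19:11469118-11469417, plus strand: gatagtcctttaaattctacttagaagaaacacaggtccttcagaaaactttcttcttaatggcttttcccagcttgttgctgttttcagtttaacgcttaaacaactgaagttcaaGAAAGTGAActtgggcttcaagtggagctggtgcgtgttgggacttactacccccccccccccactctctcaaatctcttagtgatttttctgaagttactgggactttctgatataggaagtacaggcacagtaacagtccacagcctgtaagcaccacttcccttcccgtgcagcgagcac
Ms4a7, chr19:11334646-11334945, minus strand: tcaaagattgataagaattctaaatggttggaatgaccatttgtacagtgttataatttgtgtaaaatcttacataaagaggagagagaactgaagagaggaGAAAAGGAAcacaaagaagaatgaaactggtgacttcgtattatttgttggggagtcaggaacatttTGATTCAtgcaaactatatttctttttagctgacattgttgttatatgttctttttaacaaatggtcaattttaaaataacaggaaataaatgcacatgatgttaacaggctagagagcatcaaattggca
Ms4a7, second start site, chr19:11336097-11336396, minus strand: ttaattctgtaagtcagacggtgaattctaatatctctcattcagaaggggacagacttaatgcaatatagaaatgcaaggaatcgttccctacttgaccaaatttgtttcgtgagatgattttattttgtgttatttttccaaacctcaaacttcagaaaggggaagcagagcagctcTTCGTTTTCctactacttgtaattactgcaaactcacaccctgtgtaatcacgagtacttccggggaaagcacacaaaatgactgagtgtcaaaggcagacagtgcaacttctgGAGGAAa
The Ms4a6b and Ms4a6c windows shared an unbroken run of 48 bases that starts at -118 from the Ms4a6b start site and at -49 from the Ms4a6c start site. It reads as follows.
Run shared by Ms4a6b and Ms4a6c: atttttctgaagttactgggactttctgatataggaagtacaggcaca
No other pair of the 6 member windows at hand shared more than 12 bases. The interferon letters matched once in each, at -206 in Ms4a6b and at -133 in Ms4a6c, with the same bases at both free positions. Ms4a7 held them at -148 from one start site and at -71 from the other. Of 32851 promoter windows of this length, 8.56% held these letters. The Ms4a3 window held the ETS letters at 36 after the start site and the C/EBP letters next to them at 42, which 28.3% and 10.8% of all windows held. The ETS letters also stood at 44 after the second Ms4a7 start site and at -61 in the Ms4a4c window. The AP-1 letters of Ms4a7 at -81 stood in 7.81% of all windows, the gamma-activated letters stood in no window of a member and in 8.3% of all windows, and the TATA letters stood in none of a member and in 13.6% of all. A match of letters is a description of the sequence only.

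The values were log2 signals, on which a difference of 1 is a 2-fold difference. The median of all values was 4.06, and a probe below it is called dim here, because no measure of background was among the values used. A probe was called different when the adjusted p of limma was below 0.01, and the brightest probe stood for its gene. Itgam, which encodes CD11b, lay between 5.74 and 8.87 on all 14 arrays. PyMT spleen 2 went against its label: it was closest to the PyMT bone marrow array among the other 13 (r = 0.949 across probes), and Ms4a1 was 4.12 there, against 6.57 to 7.14 on the other 4 spleen arrays. For the members called against spleens, values without it are also given. Fewer cells of a type and less RNA per cell cannot be told apart in these sorted populations.

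The members split into 3 patterns. Ms4a6d and Ms4a7 were higher in BrM of both models, Ms4a6b and Ms4a6c were high in EO771 BrM alone among the 6 conditions, and Ms4a3 was lower in BrM. In the pooled comparison of all 6 BrM arrays with all 8 spleen and bone marrow arrays, 2 members were called higher and 1 lower, where 6.92% of all probes were called. In PyMT BrM against PyMT spleen and bone marrow the same counts were 2 and 1, where 4.79% of all probes were called. In EO771 BrM against naïve spleen and bone marrow 4 members were called higher and 1 lower, where 3.12% of all probes were called. The median difference of the 6 members was 1.51, 1.09 and 2.88 in these comparisons, beside a median of all probes between -0.01 and 0.00. With 1 EO771 BrM array left out, whichever of them it was, the EO771 comparison called 1 member, Ms4a6d, and the lone array was then assumed to vary like the other groups.

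**Figure D1:**
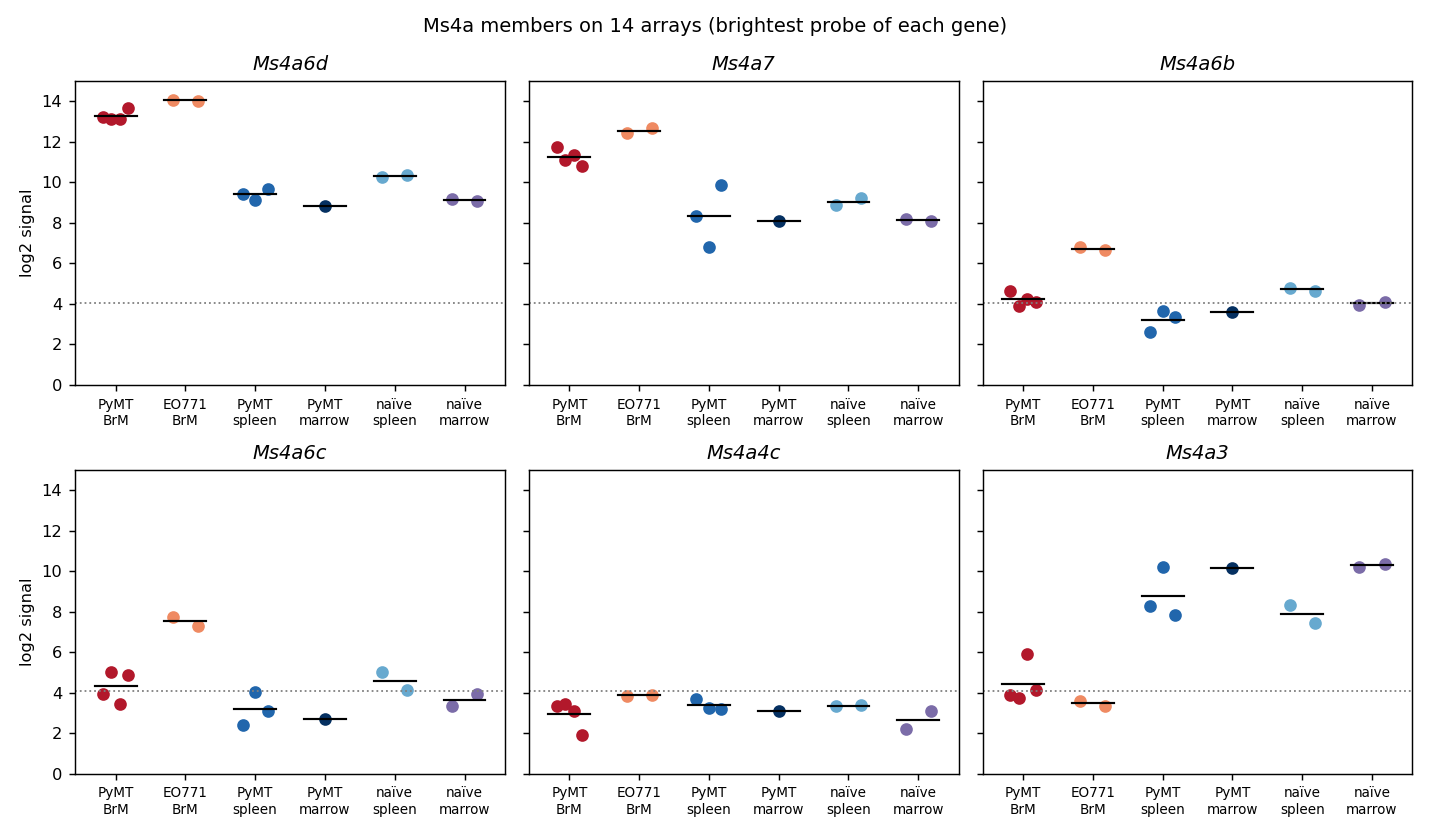
Log2 signal (y axis) of the brightest probe of each member on every array, by condition (x axis), with points for arrays, black bars for condition means and a dotted line at the median of all values, 4.06. Ms4a6d and Ms4a7 lay higher in BrM of both models, Ms4a6b and Ms4a6c stood out in EO771 BrM, Ms4a4c lay below the line on all arrays, and Ms4a3 lay lower in BrM.

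Ms4a6d, which is expressed in macrophages and has been described in mice as a partner of the inhibitory receptor Vsig4, gave the steadiest difference of the family. Its log2 signal was 13.22, 13.12, 13.13 and 13.65 in PyMT BrM and 14.07 and 14.02 in EO771 BrM. It was 9.40, 9.14 and 9.68 in PyMT spleens, 8.82 in PyMT bone marrow, 10.28 and 10.37 in naïve spleens and 9.19 and 9.09 in naïve bone marrow. Every BrM array lay above every spleen and bone marrow array, and the order ran from EO771 BrM and PyMT BrM down to naïve spleens, with PyMT spleens and naïve bone marrow overlapping and PyMT bone marrow lowest. The difference was 4.04 in the pooled comparison (SE 0.27, limma adjusted p = 9.58e-08), 4.02 in PyMT (SE 0.31, adjusted p = 3.35e-06) and 4.31 in EO771 (SE 0.38, adjusted p = 1.37e-05). The pooled call held with each array left out in turn (3.93 to 4.16) and with the mouse code as a block (3.99, adjusted p = 0.000734). With that block only codes with both BrM and spleen or bone marrow arrays bear on the pooled difference. All of these are PyMT mice, so EO771 and naïve arrays do not enter it. The Ms4a6d difference without PyMT spleen 2 was 3.98 in the pooled and in the PyMT comparison, and both calls held.

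A second, dimmer Ms4a6d probe gave the same picture with a wider span. It read 11.35, 10.89, 10.80 and 11.61 in PyMT BrM and 12.81 and 12.49 in EO771 BrM, against 5.82 to 6.55 in PyMT spleens and bone marrow and 6.87 to 7.82 in naïve tissue. The groups did not overlap, and the pooled difference of this probe was 4.83 (SE 0.36, adjusted p = 2.72e-07). The BrM values of the brighter probe lay close to the highest value on the arrays, 14.58.

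Ms4a7, a gene of mature macrophages that also marks macrophages at the borders of the brain, was the second member that was higher in BrM of both models. Its log2 signal was 11.74, 11.10, 11.34 and 10.82 in PyMT BrM and 12.43 and 12.66 in EO771 BrM. It was 8.32, 6.83 and 9.89 in PyMT spleens, 8.07 in PyMT bone marrow, 8.86 and 9.22 in naïve spleens and 8.21 and 8.10 in naïve bone marrow. BrM and the other arrays did not overlap, and both EO771 BrM arrays lay above all PyMT BrM arrays. PyMT spleens spread most (SD 1.53), with PyMT spleen 2 lowest and PyMT spleen 3 highest, so the order among spleens and bone marrow is not settled beyond their spread. The difference was 3.24 in the pooled comparison (SE 0.41, adjusted p = 6.00e-05), 2.97 in PyMT (SE 0.49, adjusted p = 0.00159) and 3.95 in EO771 (SE 0.60, adjusted p = 0.00106). With the mouse code as a block the pooled and the PyMT difference of Ms4a7, from the same PyMT arrays, were 2.82 (adjusted p = 0.0234), which ended both calls. Without EO771 BrM 1 and without EO771 BrM 2 the EO771 difference was 4.06 and 3.83 (adjusted p = 0.0182 and 0.0226). Without PyMT spleen 2 the Ms4a7 difference was 3.01 in the pooled comparison and 2.49 in PyMT (adjusted p = 0.00272), and both calls held.

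The other 3 Ms4a7 probes were dimmer and did not all follow the first. The next brightest was 6.07, 5.45, 5.66 and 5.63 in PyMT BrM and 8.20 and 8.49 in EO771 BrM, against 4.11 to 4.97 in spleens and bone marrow, again without overlap. Its difference was 1.10 in PyMT (SE 0.25, adjusted p = 0.0114) and 3.80 in EO771 (SE 0.30), and it was the only member probe for which the difference between both comparisons passed the threshold (-2.70 as PyMT minus EO771, SE 0.39, adjusted p = 0.00828). The remaining 2 probes lay between 1.27 and 4.24 on all arrays, and neither was called in any comparison.

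**Figure D2:**
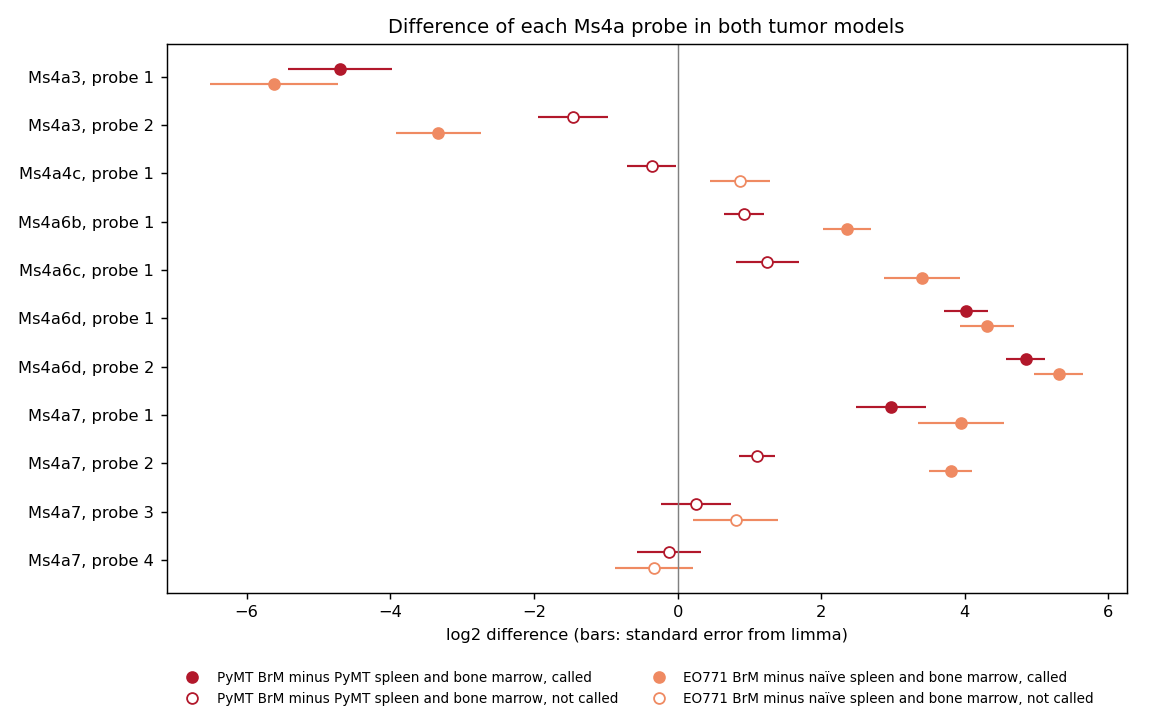
Log2 difference (x axis) of each of the 11 member probes (y axis, brightest probe of a gene first) in PyMT BrM minus PyMT spleen and bone marrow (n = 4 and 4) and in EO771 BrM minus naïve spleen and bone marrow (n = 2 and 4), with the standard error of limma as bars and filled points for called probes. Both Ms4a6d probes and the first Ms4a7 probe were called higher in both comparisons, and the first Ms4a3 probe was called lower in both. In the EO771 comparison alone the Ms4a6b, Ms4a6c and second Ms4a7 probes were called higher and the second Ms4a3 probe lower.

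Ms4a6b and Ms4a6c, which lie close together in the cluster and are expressed in monocytes and, for Ms4a6b, also in T cells, were high in 1 condition. Ms4a6b was 4.62, 3.90, 4.24 and 4.12 in PyMT BrM and 6.81 and 6.66 in EO771 BrM. It was 2.59, 3.64 and 3.38 in PyMT spleens, 3.58 in PyMT bone marrow, 4.81 and 4.65 in naïve spleens and 3.96 and 4.09 in naïve bone marrow. Only the EO771 BrM arrays stood well above the median of all values, and both naïve spleens lay above all PyMT BrM arrays. In the EO771 comparison Ms4a6b was 2.36 higher (SE 0.34, adjusted p = 0.000638). In the PyMT comparison its difference was 0.92 (SE 0.28, adjusted p = 0.0467), which missed the threshold although PyMT BrM did not overlap PyMT spleens and bone marrow.

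Ms4a6c had the same shape at a larger span. It was 3.94, 5.02, 3.44 and 4.85 in PyMT BrM and 7.75 and 7.28 in EO771 BrM. It was 2.43, 4.04 and 3.10 in PyMT spleens, 2.70 in PyMT bone marrow, 5.02 and 4.13 in naïve spleens and 3.37 and 3.93 in naïve bone marrow. EO771 BrM stood apart from all other arrays, and PyMT BrM overlapped the other conditions except PyMT bone marrow. Ms4a6c was 3.40 higher in the EO771 comparison (SE 0.54, adjusted p = 0.00135), and its difference was 1.25 in the PyMT comparison (SE 0.44, adjusted p = 0.0884).

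Neither gene passed the pooled comparison, with differences of 1.22 for Ms4a6b (SE 0.49, adjusted p = 0.128) and 1.79 for Ms4a6c (SE 0.62, adjusted p = 0.0736). Both passed it when the set of mice was a block (adjusted p = 0.00162 for Ms4a6b and 0.00304 for Ms4a6c) and when the 6 conditions had equal weight (Ms4a6b 1.59 and Ms4a6c 2.39). Without EO771 BrM 1 the EO771 difference of Ms4a6b was 2.28 (adjusted p = 0.0186) and that of Ms4a6c 3.17 (adjusted p = 0.0353). Without EO771 BrM 2 they were 2.43 (adjusted p = 0.0112) for Ms4a6b and 3.64 (adjusted p = 0.0150) for Ms4a6c.

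Ms4a4c, a gene of monocytes that lies next to Ms4a4b in the cluster, was dim on every array and was called in no comparison. It was 3.34, 3.44, 3.08 and 1.92 in PyMT BrM, 3.86 and 3.89 in EO771 BrM, 3.71, 3.24 and 3.19 in PyMT spleens, 3.08 in PyMT bone marrow, 3.35 and 3.38 in naïve spleens and 2.21 and 3.10 in naïve bone marrow. EO771 BrM was highest, and all conditions lay below the median of all values. The pooled Ms4a4c difference of 0.10 (SE 0.29, adjusted p = 0.898) turned to -0.09 when each array was centred on reference genes.

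Ms4a3 ran opposite to the macrophage members. Its log2 signal was 3.87, 3.71, 5.92 and 4.15 in PyMT BrM and 3.60 and 3.34 in EO771 BrM. It was 8.27, 10.22 and 7.83 in PyMT spleens, 10.13 in PyMT bone marrow, 8.34 and 7.46 in naïve spleens and 10.21 and 10.37 in naïve bone marrow. All BrM arrays lay below all spleen and bone marrow arrays, with PyMT BrM 3 the highest of the BrM arrays. PyMT spleen 2 lay within the bone marrow range, and the other 4 spleens lay below it. The difference was -5.00 in the pooled comparison (SE 0.54, adjusted p = 1.20e-05), -4.70 in PyMT (SE 0.72, adjusted p = 0.000965) and -5.62 in EO771 (SE 0.89, adjusted p = 0.00137). Because 3.87, 3.71, 3.60 and 3.34 in BrM lay below the median of 4.06 and are dim, the size of the Ms4a3 difference is uncertain. With values below 4.06 set to 4.06, it was -4.72 in the pooled comparison, -4.56 in PyMT and -5.03 in EO771, and all 3 calls held. Without PyMT spleen 2 it was -4.84 in the pooled comparison and -4.33 in PyMT (adjusted p = 0.00367), and both calls held.

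The mouse code as a block ended the pooled and the PyMT call of Ms4a3 (-4.37, adjusted p = 0.0173 in both, from the same PyMT arrays). The number in the title as a block ended the PyMT call (-4.61, adjusted p = 0.0138). The EO771 difference of Ms4a3 was -5.75 without EO771 BrM 1 (adjusted p = 0.0228) and -5.49 without EO771 BrM 2 (adjusted p = 0.0262). The second, dimmer Ms4a3 probe lay between 2.28 and 4.25 in BrM, against 5.15 to 7.54 in spleens and bone marrow, with a pooled difference of -2.25 (SE 0.42, adjusted p = 0.00174). In the PyMT comparison this probe was not called (-1.45, SE 0.49, adjusted p = 0.0741), and in the EO771 comparison it was (-3.33, SE 0.59, adjusted p = 0.00336).

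Genes of granulocyte precursors moved with Ms4a3. Of 11 such genes measured, 9 were lower in the pooled comparison, with a median difference of -4.61, beside -0.01 for all probes, and none was higher. The largest differences were those of Mpo (-6.48), the myeloperoxidase of primary granules, and Fcnb (-5.86), a secreted ficolin. Their mean log2 signal was 4.66 to 6.54 in BrM, against 8.005 to 10.11 in spleens and 9.72 to 10.21 in bone marrow. PyMT BrM 3 held the highest mean among BrM arrays for these genes as for Ms4a3, and PyMT spleen 2 the highest among spleens. Of 13 genes of mature neutrophils 12 were lower, with a median difference of -4.05. The part of these cells in the Ms4a3 difference was not tested.

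Some genes of mature macrophages were higher in BrM, as Ms4a6d and Ms4a7 were. Of 13 measured, 7 were higher in the pooled comparison and none lower, with a median difference of 2.29, and without PyMT spleen 2 the count of higher genes was 4. In the PyMT comparison 3 were higher and none lower, and in the EO771 comparison 3 were higher and 1 lower. The lower one was Cd163, the hemoglobin scavenger receptor, at -5.94 in EO771 (adjusted p = 0.00137), against a difference of -1.18 in PyMT (adjusted p = 0.381) and -3.14 in the pooled comparison (adjusted p = 0.0143). The largest pooled differences among the higher genes were those of Gpnmb (4.87), a glycoprotein of lipid-laden macrophages, and Msr1 (3.80), a scavenger receptor. Their mean log2 signal was 10.94 to 11.44 in BrM, against 8.64 to 10.48 in spleens and bone marrow. Of 10 microglia genes, 3 were higher, Fcrls (8.77) and Olfml3 (6.34) foremost, although the sort was for graft-derived cells, while the microglial receptor gene P2ry12 differed by 0.40 (adjusted p = 0.358). The median difference of the 10 microglia genes was 0.72. Their mean was 6.63 to 7.86 in BrM and 4.80 to 5.62 elsewhere, a gap that came largely from the 3 higher genes. The part of such cells was not tested. Of 8 genes of Trem2 signaling and shedding, which human variants of the cluster have been linked to, 2 were higher: Trem2 itself (4.94), a lipid receptor, and Adam17 (1.10), a sheddase.

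Interferon-response genes, like Ms4a6b and Ms4a6c, had their highest mean in EO771 BrM. In the EO771 comparison 10 of 12 were higher and none lower, with a median difference of 4.58, and in the PyMT comparison 2 of 12 were higher (1 without PyMT spleen 2), with a median of 0.80. Their mean log2 signal was 11.23 and 11.43 in EO771 BrM, against 6.77, 7.87, 9.01 and 8.06 in PyMT BrM and 6.62 to 7.47 in spleens and bone marrow. Within PyMT BrM, array 3 was highest for the interferon genes and had 4.24 for Ms4a6b and the lowest Ms4a6c value, 3.44. Both members stayed around the median of all values there, from 3.90 to 4.62 for Ms4a6b and from 3.44 to 5.02 for Ms4a6c. Genes of T and NK cells, in which Ms4a6b is also known, had their lowest means in EO771 BrM, 3.78 and 3.98, against 4.08 to 5.34 in PyMT BrM. Genes of classical monocytes had means of 11.14 and 11.31 in EO771 BrM, against 8.95 to 9.86 in PyMT BrM. The part of any of these in the differences was not tested.

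**Figure D3:**
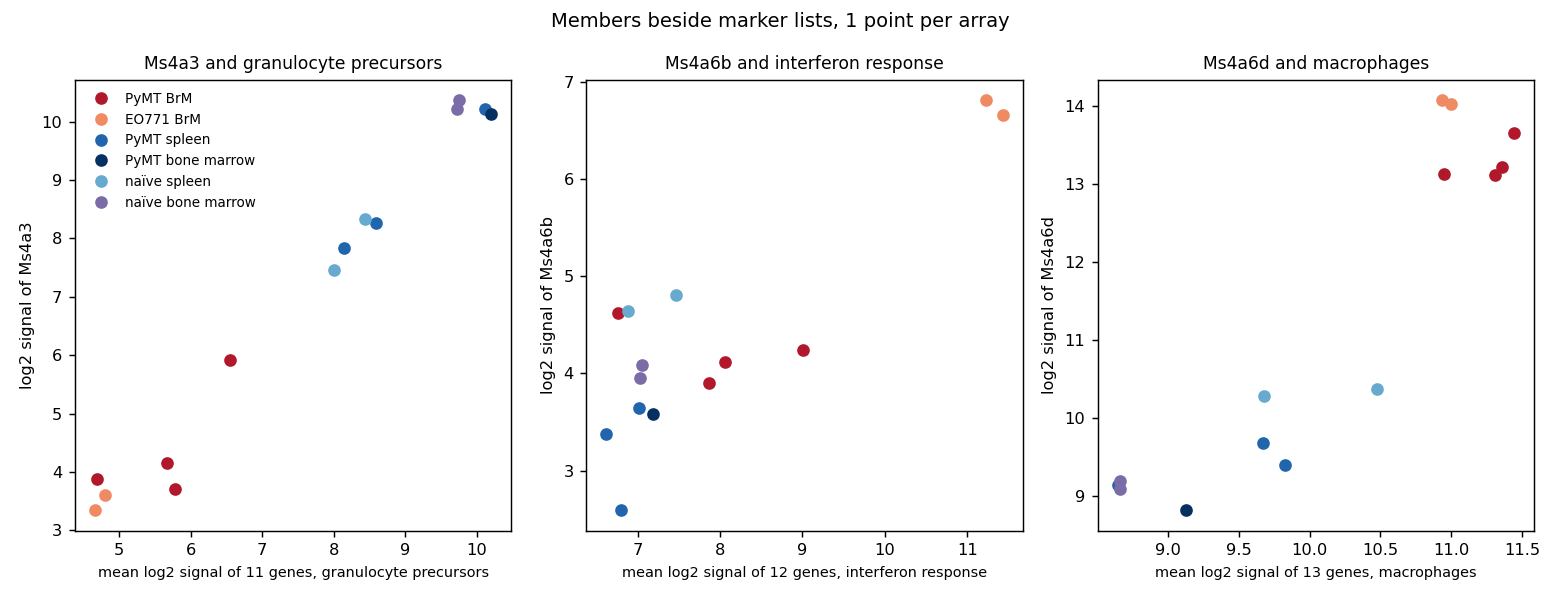
Log2 signal of Ms4a3, Ms4a6b and Ms4a6d (y axes) beside the mean log2 signal of the granulocyte precursor, interferon-response and macrophage genes (x axes), with 1 point for each of 14 arrays, colored by condition. Ms4a3 lay low where the precursor genes were low, Ms4a6b was high on both EO771 BrM arrays where the interferon genes were high, and the 6 BrM arrays stood high for Ms4a6d and the macrophage genes.

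The difference between the PyMT and the EO771 comparison was itself tested, and limma called none of the 6 members by its brightest probe, where 0.13% of all probes were called. At an unadjusted p below 0.05 there were 4028 of all 45281 probes and 3 members, Ms4a4c, Ms4a6b and Ms4a6c. As PyMT minus EO771, the difference was -1.22 for Ms4a4c (SE 0.54, adjusted p = 0.534), which was dim on all arrays. It was -1.44 for Ms4a6b (SE 0.44, adjusted p = 0.265), -2.15 for Ms4a6c (SE 0.69, adjusted p = 0.308), -0.29 for Ms4a6d (SE 0.49, adjusted p = 0.923), -0.98 for Ms4a7 (SE 0.78, adjusted p = 0.779) and 0.92 for Ms4a3 (SE 1.14, adjusted p = 0.883). With values below 4.06 set to 4.06, that of Ms4a6b was -2.13 (adjusted p = 0.00310), which called 1 member. This floor raised every PyMT spleen and bone marrow value of Ms4a6b, which were 2.59 to 3.64. It thus shrinks the PyMT difference by itself, and the call does not add to the test above. No member was called either without PyMT spleen 2.

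Set directly against each other, PyMT BrM was lower than EO771 BrM for 2 members and higher for none, where 1.59% of all probes were called. Ms4a6b averaged 4.22 (SD 0.30, n = 4) in PyMT BrM and 6.73 (SD 0.11, n = 2) in EO771 BrM, a difference of -2.51 (SE 0.30, adjusted p = 0.00133). Ms4a6c averaged 4.32 (SD 0.75) in PyMT BrM and 7.52 (SD 0.33) in EO771 BrM, a difference of -3.20 (SE 0.51, adjusted p = 0.00535). Both genes were thus lower on all 4 PyMT BrM arrays than on both EO771 BrM arrays. The brighter probes of Ms4a6d (-0.77, SE 0.24, adjusted p = 0.0838) and Ms4a7 (-1.30, SE 0.60, adjusted p = 0.252) missed the threshold, while the next probe of each passed it, at -1.48 for Ms4a6d (adjusted p = 0.00796) and -2.64 for Ms4a7 (adjusted p = 0.000757). Ms4a3 differed by 0.94 (SE 0.68, adjusted p = 0.494).

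The calls between both tumors depended on single arrays and on the fit. With the number in the title as a block neither gene was called (adjusted p = 0.0234 for Ms4a6b and 0.0321 for Ms4a6c). In a fit of only the arrays compared the call of Ms4a6b held (0.00695) and that of Ms4a6c ended (0.0144). With either EO771 BrM array left out no member was called: without EO771 BrM 1 the adjusted p was 0.0296 for Ms4a6b and 0.0821 for Ms4a6c, and without EO771 BrM 2 it was 0.0156 for Ms4a6b and 0.0374 for Ms4a6c. The Ms4a6c call also ended without PyMT BrM 1 (adjusted p = 0.0126), 3 (0.0107) or 4 (0.0103). In this comparison 9 of 12 interferon-response genes were lower (median -3.56), as were 3 of 7 classical monocyte genes (median -1.95), and none of either was higher. Of 7 genes of epithelial and carcinoma cells 3 were higher in PyMT BrM than in EO771 BrM, the keratin genes Krt18 (2.83) and Krt14 (2.54) and the E-cadherin gene Cdh1 (1.63). Their mean log2 signal was 5.04 to 5.93 in PyMT BrM and 4.27 to 4.30 in EO771 BrM, against 3.46 to 4.13 in spleens and bone marrow. In the pooled comparison 2 of the 7 were higher, Krt8 (3.10) and Cdh1 (1.46), in the PyMT comparison 4 and in the EO771 comparison 1. The part of tumor cell RNA in the differences of the members was not tested.

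Against each tissue on its own, the same 3 members were called. In BrM against the 5 spleens 2 were higher and 1 lower, where 5.17% of all probes were called. The differences were 3.76 for Ms4a6d (SE 0.27, adjusted p = 5.72e-07), 3.06 for Ms4a7 (SE 0.46, adjusted p = 0.000459) and -4.32 for Ms4a3 (SE 0.48, adjusted p = 3.23e-05). Without PyMT spleen 2 they were 3.60 for Ms4a6d, 2.61 for Ms4a7 and -3.87 for Ms4a3, and all 3 calls held. In BrM against the 3 bone marrow arrays 2 were higher and 1 lower, where 6.45% of all probes were called. The differences were 4.50 for Ms4a6d (SE 0.32, adjusted p = 6.81e-07), 3.55 for Ms4a7 (SE 0.54, adjusted p = 0.000437) and -6.13 for Ms4a3 (SE 0.56, adjusted p = 6.27e-06). The mouse code as a block ended the calls of Ms4a3 (adjusted p = 0.0135 against spleen and 0.0140 against bone marrow) and of Ms4a7 (0.0276 and 0.0387).

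Between spleen and bone marrow Ms4a3 had the largest difference of the members, and whether it was called depended on 1 array. With all 5 spleens limma called 0 of 6 members, where 0.00883% of all probes were called. An unadjusted p below 0.05 was held by 2 members and by 6004 of all 45281 probes. The Ms4a3 difference was -1.81 (SE 0.58, adjusted p = 0.186). Without PyMT spleen 2 it was -2.26 (SE 0.48, adjusted p = 0.00985), and 3.65% of all probes were then called. That array was singled out because it resembled bone marrow. Leaving it out therefore widens this difference by selection, and the call is not independent support. In naïve mice alone Ms4a3 averaged 7.90 (SD 0.62) in spleens and 10.29 (SD 0.11) in bone marrow, a difference of -2.39 (SE 0.79, adjusted p = 0.175). No member was called there by limma, and 0% of all probes were called. At an unadjusted p below 0.05 there were 2 members and 6794 of all 45281 probes. Ms4a6d averaged 10.33 (SD 0.06) in naïve spleens and 9.14 (SD 0.07) in naïve bone marrow, a difference of 1.19 (SE 0.28, adjusted p = 0.109).

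Between PyMT spleens and naïve spleens limma called 0 of 6 members, where 0.115% of all probes were called. An unadjusted p below 0.05 was found for 8799 of all 45281 probes and for 3 members. The clearest was Ms4a6b, with 2.59, 3.64 and 3.38 in PyMT spleens and 4.81 and 4.65 in naïve spleens and no overlap (-1.52, SE 0.32, adjusted p = 0.0324). Without PyMT spleen 2 the difference was -1.74 (adjusted p = 0.0174). Ms4a6d differed by -0.92 (SE 0.25, adjusted p = 0.0746) and Ms4a6c by -1.39 (SE 0.54, adjusted p = 0.190). Leaving out PyMT spleen 2 gave -0.79 for Ms4a6d (adjusted p = 0.0912) and -1.81 for Ms4a6c (adjusted p = 0.0813), and still none was called.

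**Figure D4:**
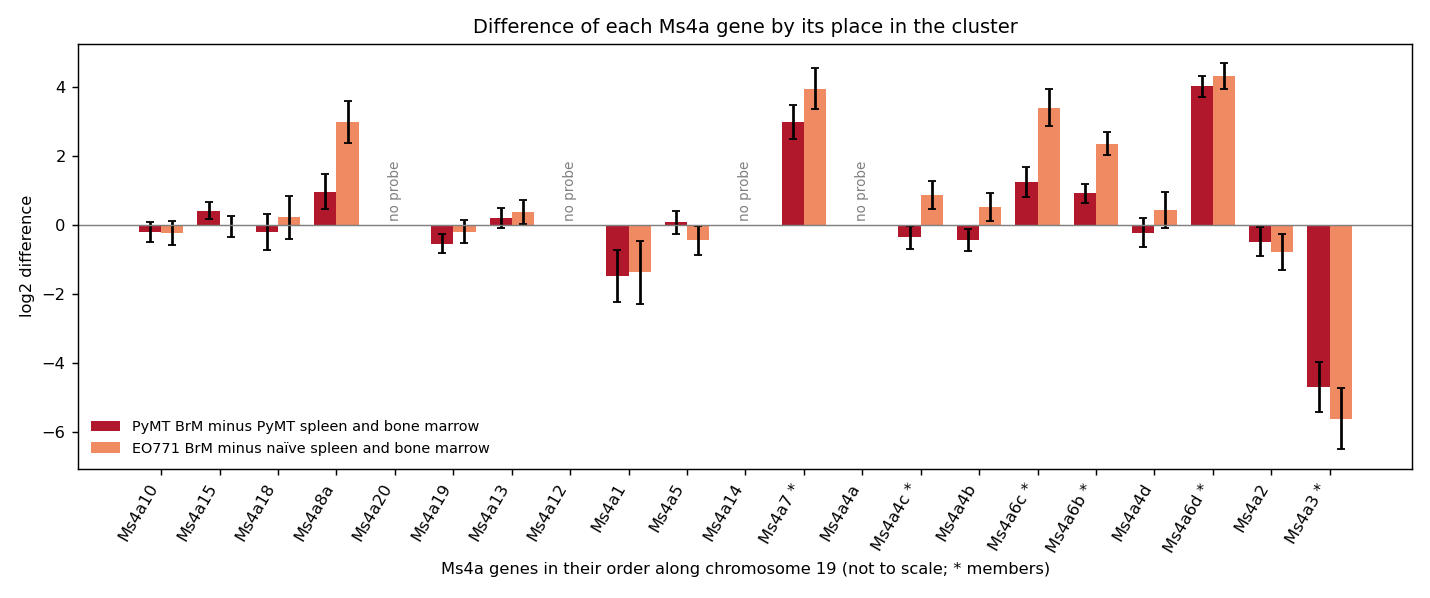
Log2 difference (y axis) of each Ms4a gene in the order of the cluster on chromosome 19 (x axis, not to scale, members with a star), for PyMT BrM minus PyMT spleen and bone marrow and for EO771 BrM minus naïve spleen and bone marrow, with the standard error of limma as bars. Ms4a6d was 4.02 and 4.31 higher, while Ms4a3, 2 genes further along, differed by -4.70 and -5.62.

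Other genes of the family were measured on the same arrays. Of 12 other Ms4a and Tmem176 genes on the list, none was called in the pooled comparison, with a median difference of -0.03. Ms4a2, which lies between Ms4a6d and Ms4a3, differed by -0.68 in the pooled comparison (adjusted p = 0.22). Of 8 genes of basophils and mast cells, 1 was lower, Hdc (-3.00), the histidine decarboxylase that makes histamine. Hdc was bright on every array, from 9.13 to 13.72, while the mean of the 8 genes lay between 4.52 and 6.55. The part of such cells in the Hdc difference was not tested. Ms4a1 was 3.91 to 4.25 in BrM, and in BrM against spleen its difference was -2.22 (SE 0.42, adjusted p = 0.00278), and 5 of 7 B cell genes were lower there. The Ms4a1 difference was -2.76 without PyMT spleen 2, and the same number of B cell genes were lower. Ms4a4b, a T cell member next to Ms4a4c, differed by -0.11 in the pooled comparison (SE 0.28, adjusted p = 0.879). It differed by -0.44 in PyMT (adjusted p = 0.449) and by 0.52 in EO771 (adjusted p = 0.610). PyMT BrM lay below EO771 BrM without overlap (-0.88, adjusted p = 0.158). The next brightest probe did so too (-2.04, adjusted p = 0.0790), but PyMT spleen 1 was highest for it, at 6.36. The dimmest probe differed by -0.26 between the tumors (adjusted p = 0.778).

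Ms4a8a, described in mice in alternatively activated macrophages, was 7.29, 7.74, 6.71 and 9.49 in PyMT BrM and 9.63 and 8.62 in EO771 BrM. It was 6.72, 7.08 and 7.35 in PyMT spleens, 6.22 in PyMT bone marrow, 5.90 and 6.87 in naïve spleens and 6.03 and 5.78 in naïve bone marrow. By this brighter probe EO771 BrM lay above all spleen and bone marrow arrays, while PyMT BrM overlapped PyMT spleens and spread widely. The Ms4a8a difference was 2.98 in EO771 (SE 0.61, adjusted p = 0.00861; 0.0116 in the fit without PyMT spleen 2) and 0.97 in PyMT (SE 0.50, adjusted p = 0.260). In the pooled comparison the brighter probe missed the threshold (1.75, SE 0.43, adjusted p = 0.0123) and the dimmer probe passed it (2.00, adjusted p = 0.00508). The dimmer probe was also called in EO771 (2.88, adjusted p = 0.00735). In PyMT it was not called (1.66, SE 0.47, adjusted p = 0.0366), although PyMT BrM did not overlap PyMT spleens and bone marrow.

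Tmem176a and Tmem176b, related 4-pass proteins that lie side by side on chromosome 6 and act as cation channels of dendritic cells, ran the other way between the tumors. Tmem176a was 9.31, 9.38, 8.31 and 9.46 in PyMT BrM and 5.82 and 5.94 in EO771 BrM, and it was 7.24 to 9.13 in spleens and bone marrow. EO771 BrM was lowest of all conditions, and PyMT BrM was 3.23 higher than EO771 BrM (SE 0.41, adjusted p = 0.00170). The Tmem176a call ended without EO771 BrM 1 (3.17, adjusted p = 0.0352), without EO771 BrM 2 (3.29, adjusted p = 0.0204) and with the number in the title as a block (3.33, adjusted p = 0.0107). Tmem176b was 11.13, 9.83, 9.53 and 10.35 in PyMT BrM and 7.69 and 7.98 in EO771 BrM. It was 2.15 higher in PyMT BrM than in PyMT spleens and bone marrow (SE 0.42, adjusted p = 0.00506), and its difference between the tumors was 2.37 (SE 0.45, adjusted p = 0.0118). In the fit without PyMT spleen 2 the Tmem176b difference was 1.97 in PyMT (adjusted p = 0.0164), which ended that call, and the adjusted p between the tumors was 0.00645. The second Tmem176a probe, at 3.80 to 5.11 on all arrays, differed by 0.48 between the tumors (SE 0.32, adjusted p = 0.452). Of 12 dendritic cell genes none was called in the pooled comparison (median 0.09) or between the tumors (median 0.36). In the fit without PyMT spleen 2, 3 of the 12 were higher in PyMT BrM than in EO771 BrM. The mean of the dendritic cell genes was 7.02 to 7.41 in PyMT BrM and 6.56 and 6.93 in EO771 BrM. The part of such cells was not tested.

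The genes whose centred values over the 14 arrays lay nearest to each member were sought among 19056 other named genes, by the root mean square of the log2 differences, which is 0 for an identical pattern. Nearest to Ms4a3 were Elane (0.361), the neutrophil elastase, Cebpe (0.432), a transcription factor of granulocyte maturation, and Mapk13 (0.520), a stress kinase. Nearest to Ms4a6d were the scavenger receptor gene Msr1 (0.424), Slamf9 (0.501), a SLAM family receptor, and Cd276 (0.542), the B7-H3 ligand. Nearest to Ms4a7 were Tubb6 (0.564), a tubulin, Car13 (0.576), a carbonic anhydrase, and Lrp12 (0.594), a lipoprotein receptor-related protein. Nearest to Ms4a6b were Dnase1l1 (0.275), a DNase I-like gene, Anxa4 (0.377), an annexin, and 2310022A10Rik (0.387). Nearest to Ms4a6c were Anxa4 (0.504), Hspb8 (0.585), a small heat shock protein, and Fabp5 (0.595), a fatty acid binding protein. Anxa4 stood among the nearest 3 for both Ms4a6b and Ms4a6c, and no gene was sought for Ms4a4c, whose condition means spanned 1.22.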

How the data were processed

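The 14 arrays were Illumina MouseWG-6 v2. The deposited log2 values had been made by the authors with GenomeStudio 2011.1 and limma (version not stated) per the processing notes, and their quantiles were the same on all arrays. The background correction is not given in the sources used here. The platform table gave 34885 probes 1 symbol, 18 several and 10378 none. Values were tested as deposited with lmFit and eBayes of limma 3.58.1 in R 4.3.3, p-values being adjusted by Benjamini-Hochberg over the 45281 probes together and called below 0.01. Standard errors are those of limma. The model was of 2 arms for the pooled comparison, 4 groups for each tumor model and their difference, 3 tissues, or 6 conditions. The steps were tested on simulated data first.

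Named were all members with every probe (the brightest standing for the gene), the other Ms4a and Tmem176 genes, for other lists the counts and the 2 called genes with the largest pooled difference, and the 3 nearest genes of members whose condition means span at least 2. The members and lists were chosen with earlier results of these data known. Replicates are separate arrays by the labels. Where nothing names separate mice, p-values measure only the spread between these arrays. Codes in the titles tie BrM, spleen and bone marrow arrays to PyMT mice. Deviations of arrays with the same mouse code correlated at -0.06, -0.03 and -0.00 over 21705 probes. Alternatives were reference-gene centring, filters and floors at the median, other probes, blocks, weights and thresholds, and each array left out.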

Additional observations from a re-analysis of the deposited data

Results flagged for a closer look

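Ms4a3 was 5.92 on PyMT BrM 3, apart from the next of the 6 BrM arrays at 4.15, a gap of 0.687 of the group's range. The mean of the granulocyte precursor genes was also highest there, at 6.54, against 4.66 to 5.77 on the other BrM arrays, and the mean of the mature neutrophil genes was 9.25. Without this array the pooled Ms4a3 difference was -5.37, against -5.00 with it. Ms4a4c was 2.21 on naïve bone marrow 1, apart from the nearest of the 8 spleen and bone marrow arrays at 3.08, a gap of 0.579 of the range, and both values are dim. Chance alone marks about 1 in 20 groups in this way, and 36 groups were examined. The next brightest Ms4a7 probe differed between the PyMT and the EO771 comparison by -2.70 on the log2 scale (limma adjusted p = 0.00828), whereas the brightest Ms4a7 probe gave -0.98 (adjusted p = 0.779).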

How the results depend on the processing

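Ms4a6d kept its call in the pooled, PyMT and EO771 comparisons and against each tissue under every alternative that could be fitted. The number of members called changed as follows. The share of all probes called under each of these fits is not given here. A change in the count may therefore not be particular to the members. In the pooled comparison 3 members became 1 with the mouse code as a replicate block (Ms4a6d alone) and 5 with the set of mice as a block or with equal weight for the 6 conditions. The EO771 BrM arrays have no partner under their codes and do not enter any difference fitted with the mouse code block. The mouse code block also left 1 member of 3 in the PyMT comparison, in BrM against spleen and in BrM against bone marrow, and it could not be fitted for the EO771 comparison, the difference between the models, PyMT BrM against EO771 BrM or PyMT spleen against naïve spleen. The difference between the models went to 1 member with a floor at the median, and PyMT spleen against naïve spleen to 1 at a threshold of 0.05. PyMT BrM against EO771 BrM had 0 members with the number in the title as a replicate block and 1 with only the arrays compared. With 1 array left out the members called ranged from 1 to 5 in the EO771 comparison, from 0 to 2 in PyMT BrM against EO771 BrM and from 0 to 1 in spleen against bone marrow (1 without PyMT spleen 2). The cause of these changes was not tested.

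Differences near 0 changed sign. Ms4a4c turned to -0.093 (reference centring) and -0.44 (mouse code block) in the pooled comparison, and to 0.15 in BrM against spleen (number block). In the pooled comparison Tmem176a turned to 0.13 (probes averaged) and 0.85 (mouse code block), and Ms4a4b to 0.056 (probes averaged), 0.016 (number block) and 0.094 (equal weight). Ms4a6b in spleen against bone marrow turned to 0.13 (centring, and the mouse code block), 0.26 (floor), 0.011 (naïve bone marrow averaged) and 0.10 (number block). Ms4a1 between the tumors turned to -0.022 (number block). With each array left out in turn, pooled differences ran from -0.037 to 0.36 for Ms4a4c, from -0.35 to 0.38 for Tmem176a and from -0.25 to 0.025 for Ms4a4b. Ms4a4c ran from -0.25 to 0.15 in BrM against spleen, Ms4a6b from -0.31 to 0.24 in spleen against bone marrow and Ms4a1 from -0.029 to 0.22 between the tumors. In PyMT spleen against naïve spleen Ms4a4c ran from -0.15 to 0.11 and Ms4a7 from -1.47 to 0.059. A floor at the median left Ms4a4c with no value. The methods' t-test on the pooled comparison gave 10295 probes below an unadjusted p of 0.05, 5 members among them, and 2854 below 0.01 after Benjamini-Hochberg. Groups of 1 to 4 arrays limit the precision throughout, and dim values (Ms4a4c on every array, Ms4a3 on 4 of 6 BrM arrays, and Ms4a6b and Ms4a6c on some arrays outside EO771 BrM) limit what these differences can show.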
